A study of Rattus norvegicus with 8 samples.

Results

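The 9 genes described here encode chemokines: Ccl2, Ccl7, Ccl3, Ccl5 and Ccl20 of the CC class, Cxcl1, Cxcl10 and Cxcl12 of the CXC class, and Cx3cl1. They were taken by symbol from the 14506 genes that had a feature with exactly 1 symbol in the platform annotation. All 9 were found, each with a single feature, so no choice between features was needed. Chemokines are small secreted proteins that bind G protein-coupled receptors and direct the migration of leukocytes and of neural cells. In the central nervous system astrocytes and microglia make the inflammatory members when stimulated, meninges and endothelium are known sources of Cxcl12, and neurons make Cx3cl1, whose receptor is carried by microglia. Inflammatory chemokines are so classed because their transcription is switched on by cytokines, often through NF-kB and AP-1.

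RNA came from myelinating cultures of Sprague-Dawley rat spinal cord, dissociated at embryonic day 15.5, in which axons, oligodendrocytes and astrocytes grow together. Untreated control cultures and cultures given human fibroblast growth factor 9 (FGF9) at 100 ng/ml were collected at 24 h and at 10 days, giving 4 groups of 2 arrays. The tissue field of the labels names neurosphere-derived astrocytes for all arrays, while titles, cell type and protocol name myelinating cultures. Log2 values of Nefl (neurons, 10.35 to 12.20), Mbp (oligodendrocytes, 10.78 to 12.67) and Gfap (astrocytes, 11.24 to 13.24) were high on all 8 arrays. Some other markers of these cells went lower: Aldh1l1 (6.52 to 8.03), Nefh (7.35 to 9.40), Mobp (7.94 to 11.86) and Mog (8.25 to 11.52). Tubb3, Nefm, Mag, Aqp4 and Slc1a2 stayed at 9.22 or above. The labels do not say that replicates were separate cultures, so p-values measure only the spread between these arrays.

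A control array and the FGF9 array that carries its number and time are called a pair; both also share the first letters of their array names. These are CL1 for 24 h pair 1, CL2 for 24 h pair 2 and 10-day pair 1, and AA1 for 10-day pair 2. What the prefix stands for is not given. The AA1 arrays stood apart: they correlated with the other 6 arrays at 0.897 to 0.939 across features, while those 6 correlated among themselves at 0.962 or more. The differences of the chemokines are therefore given per pair. The difference for FGF9 was tested with limma across all 14506 genes, first without and then with the pair as a block, and a gene passed at a Benjamini-Hochberg adjusted p under 0.05. The log2 difference is the same in both fits.

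Promoters in the RefSeq table (GRCr8, 250 bases before to 50 after the gene's start) were matched by symbol for all but Ccl2, Ccl3 and Ccl5. Shown are those of the 4 matched members with the largest differences for FGF9 in any pair, written 5′ to 3′ in the direction of the gene. Capitals mark matches, on either strand, to 4 motifs: AP-1 (TGAGTCA), the ETS motif PEA3 (AGGAAGT), NF-kB, and the interferon-stimulated response element, ISRE.
Ccl7 (GRCr8 chr10:67513845-67514144, plus strand): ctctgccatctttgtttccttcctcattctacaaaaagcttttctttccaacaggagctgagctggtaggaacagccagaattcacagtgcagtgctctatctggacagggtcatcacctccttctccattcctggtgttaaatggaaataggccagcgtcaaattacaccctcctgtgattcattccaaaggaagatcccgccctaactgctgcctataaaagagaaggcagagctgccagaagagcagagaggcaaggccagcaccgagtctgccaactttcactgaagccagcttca
Cxcl1 (GRCr8 chr14:17479272-17479571, minus strand): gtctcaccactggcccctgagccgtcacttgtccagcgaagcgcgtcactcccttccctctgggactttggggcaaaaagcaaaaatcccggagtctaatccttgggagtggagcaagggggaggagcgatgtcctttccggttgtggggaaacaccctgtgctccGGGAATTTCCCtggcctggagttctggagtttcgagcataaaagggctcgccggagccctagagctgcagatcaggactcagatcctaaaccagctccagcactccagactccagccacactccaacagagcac
Cxcl10 (GRCr8 chr14:15988816-15989115, plus strand): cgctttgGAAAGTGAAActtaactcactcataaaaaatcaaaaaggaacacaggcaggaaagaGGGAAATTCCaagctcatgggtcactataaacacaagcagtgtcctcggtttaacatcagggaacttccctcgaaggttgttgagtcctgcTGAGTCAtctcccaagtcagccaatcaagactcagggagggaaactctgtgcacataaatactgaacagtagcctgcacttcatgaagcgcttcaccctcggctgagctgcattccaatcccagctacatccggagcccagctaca
Cxcl12 (GRCr8 chr4:152060531-152060830, plus strand): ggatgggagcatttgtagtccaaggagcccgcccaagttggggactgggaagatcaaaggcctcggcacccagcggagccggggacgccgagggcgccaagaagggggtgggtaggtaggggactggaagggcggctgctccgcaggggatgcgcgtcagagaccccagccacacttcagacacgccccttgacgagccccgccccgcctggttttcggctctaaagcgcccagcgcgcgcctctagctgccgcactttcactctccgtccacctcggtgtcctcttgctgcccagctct

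In the Cxcl1 promoter the NF-kB motif matched on both strands, as 2 overlapping matches that together run from base 84 to base 74 before the start. The Cxcl10 promoter held the ISRE at bases 243 to 234, NF-kB at bases 187 to 178 and AP-1 at bases 96 to 90 before the start, with no overlap among them. Neither the Ccl7 nor the Cxcl12 window held these letters. Among the 6 matched members, 3 had an NF-kB match (Cxcl1, Cxcl10 and Ccl20) and 1 each had AP-1 (Cxcl10), PEA3 (Ccl20) and ISRE (Cxcl10). Of all 33469 promoters in the table, 4.18% held the NF-kB motif, 4.63% AP-1, 8.41% PEA3 and 3.92% ISRE. A match describes the letters of the window and is not a site of binding.

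The monocyte chemoattractants Ccl2 and Ccl7, which act through the receptor CCR2, were higher with FGF9 in all 4 pairs. Ccl2 stood at 8.40 and 9.30 in the 24 h controls and at 9.29 and 12.45 in the 24 h FGF9 arrays (replicates 1 and 2), a difference of 0.89 and 3.15 log2 units in the pairs. The groups overlapped narrowly, because the lower FGF9 array lay beside the higher control. At 10 days Ccl2 stood at 8.70 and 9.44 in controls and at 10.78 and 10.44 with FGF9, so both FGF9 arrays lay above both controls (differences of 2.08 and 1.00). As folds, the pair differences of Ccl2 were 1.85 and 8.87 at 24 h and 4.21 and 2.00 at 10 days.

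Ccl7 had the widest range of the 9 genes, 6.78 log2 units over the 8 arrays. In the 24 h controls it stood at 6.53 and 8.70 and with FGF9 at 7.76 and 12.35, differences of 1.23 and 3.65. The groups overlapped, since the replicate 2 control exceeded the replicate 1 FGF9 array. At 10 days it stood at 6.76 and 5.57 in controls and at 11.18 and 6.95 with FGF9, differences of 4.43 and 1.38, or 21.5-fold and 2.61-fold. The pair 2 control (5.57) lay at percentile 24.1 of the genes of its array, and detection above background was not tested. Both FGF9 arrays lay above both controls, though the FGF9 array of pair 2 (6.95) only just exceeded the control of pair 1 (6.76).

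Averaged over the pairs, Ccl2 differed by 2.02 ± 0.97 log2 units at 24 h and 1.54 ± 0.97 at 10 days (SE, n = 2 per group), and Ccl7 by 2.44 ± 1.91 and 2.90 ± 1.91. Neither gene passed at either time (limma adjusted p = 1 at both times). With the pair as a block the SE fell to 0.53 for Ccl2 (limma adjusted p = 0.243 at 24 h and 0.149 at 10 days) and to 0.81 for Ccl7 (0.327 and 0.0932). With a pair left out of the fit with the block, the values at 10 days went both ways. Ccl2 passed without either 24 h pair (limma adjusted p = 0.0435 in both), where the 10-day pairs alone give the residual spread, and did not pass without 10-day pair 1 (1.00, 0.426) or pair 2 (2.08, 0.149). Ccl7 passed without pair 2 (4.43, 0.035) and not without pair 1 (1.38, 0.295); these fits hold 1 control and 1 FGF9 array at 10 days, which are assumed to vary like the others. Leaving out FGF9 replicate 2 at 24 h, without the block, brought the 24 h difference to 0.44 for Ccl2 and 0.15 for Ccl7, and leaving out FGF9 replicate 1 at 10 days brought Ccl7 there to 0.79. The unadjusted p with the block lay between 0.00894 and 0.0274 for these 4 values. The 95% interval with the block ran from 0.72 to 3.31 for Ccl2 and from 0.47 to 4.42 for Ccl7 at 24 h, and from 0.24 to 2.83 and from 0.93 to 4.88 at 10 days. In such bulk samples more cells of a type and more RNA per cell cannot be told apart.

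**Figure D1:**
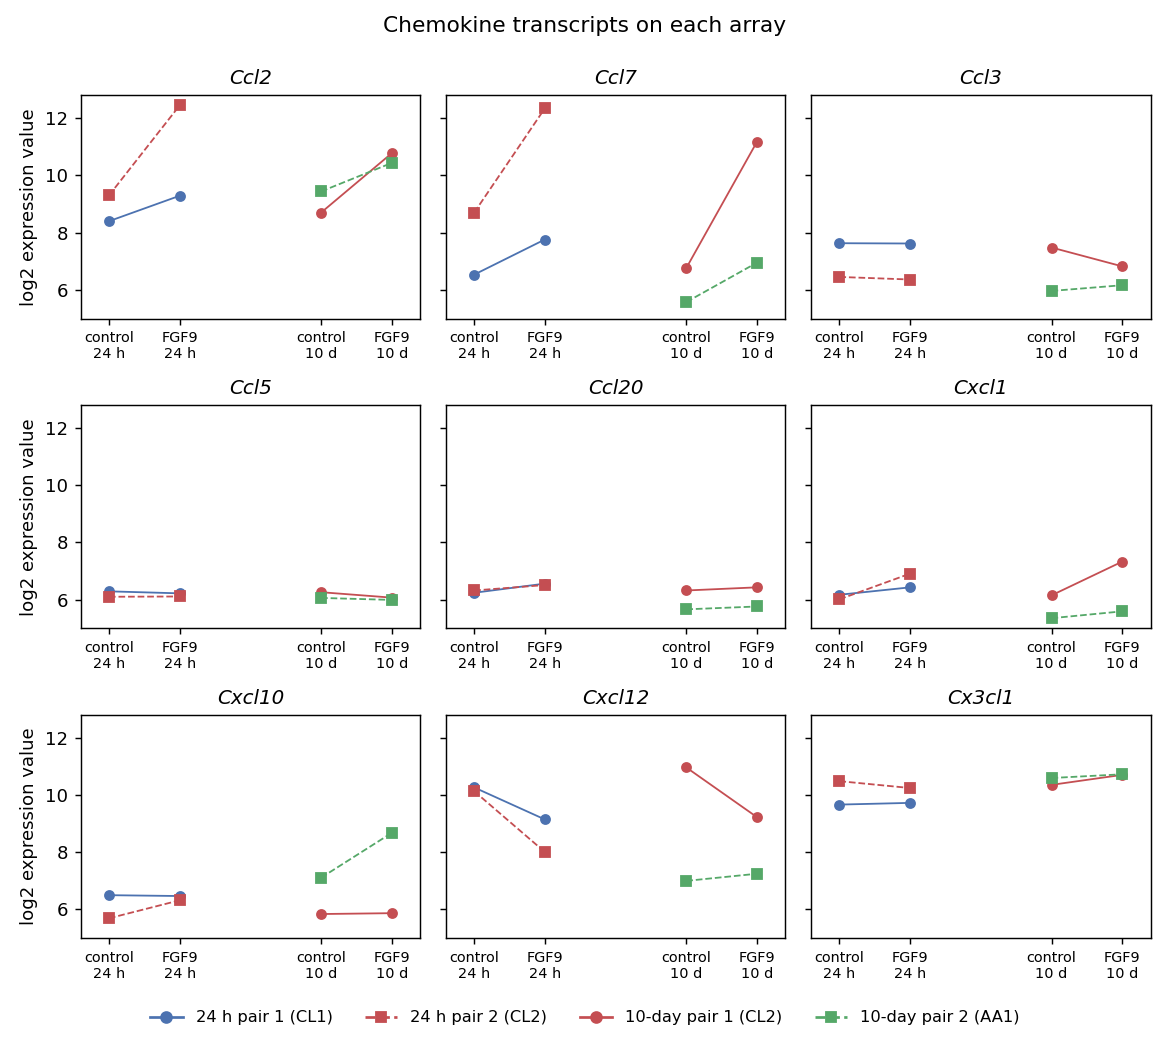
Log2 expression value (vertical axis) of each of the 9 chemokines on the 8 arrays, with a line joining the control and FGF9 array of a pair; colours are array name prefixes. All 4 lines climb for Ccl2 and Ccl7, steepest in the CL2 pairs, while the AA1 arrays are low for Cxcl12 (7.00 and 7.25) and high for Cxcl10 (7.11 and 8.68).

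Cxcl1, which attracts neutrophils through CXCR2, was higher with FGF9 in all 4 pairs too, in smaller steps. It stood at 6.17 and 6.01 in the 24 h controls and at 6.43 and 6.91 with FGF9, so the groups did not overlap. At 10 days the controls stood at 6.15 and 5.35 and the FGF9 arrays at 7.33 and 5.59, and there the groups overlapped because both AA1 arrays were low. The difference was 0.58 ± 0.58 at 24 h and 0.71 ± 0.58 at 10 days, and 0.26, 0.90, 1.18 and 0.23 in the 4 pairs in order of time and number. It did not pass with the block (limma adjusted p = 0.447 and 0.181). Its values lay at percentiles 18.5 to 47.7 of the genes of an array, and detection above background was not tested.

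Ccl20, the ligand of CCR6, was also higher in all 4 pairs, but by no more than 0.32 log2 units. Its values ran from 5.66 to 6.56, and the 2 lowest were the AA1 arrays (5.66 in the control and 5.76 with FGF9). They lay low, at percentiles 26.2 to 38.2 of the genes of an array, and detection above background was not tested. At 24 h the FGF9 arrays (6.56 and 6.51) lay above the controls (6.24 and 6.32), a difference of 0.25 ± 0.31. At 10 days the difference was 0.11 ± 0.31 and the groups overlapped. With the block the adjusted p was 0.5 at 24 h and 0.69 at 10 days in limma.

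Cxcl10, an interferon-induced chemokine that acts on CXCR3, was high on both AA1 arrays. At 10 days it stood at 5.84 in the control and 5.87 with FGF9 in pair 1, and at 7.11 and 8.68 in pair 2. The AA1 control alone exceeded all 6 arrays with other prefixes, of which the highest was 6.50. Those 6 lay low, at percentiles 27.3 to 37.3 of the genes of an array, and detection above background was not tested. The differences were 0.04 and 1.57 at 10 days and -0.03 and 0.63 at 24 h, where the arrays ran from 5.69 to 6.50 and the groups overlapped. The mean difference of 0.80 ± 0.92 at 10 days did not pass (limma adjusted p = 0.255 with the block). With 10-day pair 1 left out of the fit with the block, the AA1 difference passed alone (limma adjusted p = 0.0201), and with the AA1 pair left out the difference was 0.04 (0.957); each of these fits has 1 array per group at 10 days, assumed to vary like the others. The Cxcl10 gene overlaps Art3 in RefSeq, and which of the transcripts the feature reads was not tested.

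Cxcl12, a chemokine that guides CXCR4-carrying neural and blood progenitors and is made without inflammation, was lower with FGF9 at 24 h. It stood at 10.27 and 10.14 in the controls and at 9.15 and 8.01 with FGF9, so the groups did not overlap. The differences were -1.12 and -2.13 in the pairs, with a mean of -1.63 ± 1.31. In the fit with the block the SE was 0.47, and the gene did not pass (limma adjusted p = 0.282). It passed in that fit when either 10-day pair was left out (adjusted p = 0.041 in both), where only the 24 h pairs give the residual spread. Most members of several marker lists were lower with FGF9 at 24 h as well: 9 of 10 astrocyte markers (median -0.54), 9 of 10 oligodendrocyte markers (median -0.54), 13 of 13 neuron markers (median -0.21) and 9 of 11 fibroblast, meningeal and pericyte markers (median -0.27). Microglia and macrophage (10 of 16), neutrophil (5 of 7) and Schwann cell markers (4 of 5) were also mostly lower. Endothelial markers went the other way, with 6 of 9 higher (median 0.09), as did T and NK cell markers (8 of 12, median 0.10). Pecam1, Tek, Cd3e, Cd3g, Cd3d and Cd2 of both lists lay at or under percentile 22.3 on every array, and detection was not tested. At 24 h Kdr stood at 5.72 and 9.01 in the controls and at 5.94 and 7.48 with FGF9. Cdh5 stood at 5.24 and 7.13 in those controls and at 5.53 and 7.21 with FGF9. Oligodendrocyte precursor markers split 3 and 3. Of all 14506 genes 7292 were lower. No marker of these lists passed in either fit. The part of these cells in the lower Cxcl12 was not tested.

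At 10 days the pairs of Cxcl12 went opposite ways. In pair 1 it stood at 10.97 in the control and 9.23 with FGF9, and in pair 2 at 7.00 and 7.25. The control of pair 1 was the highest of the 8 arrays and that of pair 2 the lowest. The difference of -0.74 ± 1.31 did not pass (limma adjusted p = 0.412 with the block), and it was -1.74 without the AA1 pair (0.0512) and 0.25 without pair 1 (0.721). Collagen transcripts were low on the same AA1 arrays. Col3a1, a fibrillar collagen, stood at 5.36 and 5.69 there and between 10.05 and 11.29 on the other 6. Col1a1 stood at 7.38 and 7.27 against 10.96 to 11.84. Cspg4, of the same marker list, was not low there (7.42 and 9.18). The part of these transcripts in the level of Cxcl12 was not tested.

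Cx3cl1, the membrane-bound chemokine of neurons, ranged over 1.06 log2 units. It stood at 9.67 and 10.49 in the 24 h controls, at 9.73 and 10.25 with FGF9 at 24 h, at 10.36 and 10.60 in the 10-day controls and at 10.71 and 10.73 with FGF9 at 10 days. The groups overlapped at 24 h and did not at 10 days, where both FGF9 arrays were the highest of the 8. The difference was -0.09 ± 0.33 at 24 h and 0.24 ± 0.33 at 10 days, and neither passed (limma adjusted p = 0.859 and 0.4 with the block). At 10 days all 13 measured neuron markers were lower with FGF9, by a median of 0.93 in size, and 9 of them fell with the block, against 3.31% of all genes; 0 of 13 passed without it. Cx3cl1 was higher in both of those pairs, by 0.35 and 0.13.

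Ccl3 and Ccl5, which microglia, macrophages and T cells make, showed no difference beyond the spread of the arrays. Ccl3 stood at 7.63 and 6.45 in the 24 h controls and at 7.62 and 6.36 with FGF9. At 10 days it stood at 7.48 and 5.96 in controls and at 6.82 and 6.16 with FGF9. Its arrays thus differed by replicate more than by treatment, and the differences were -0.05 ± 0.70 at 24 h and -0.23 ± 0.70 at 10 days. With the block the 95% interval was -0.58 to 0.49 at 24 h and -0.77 to 0.31 at 10 days. Ccl5 ran only from 5.99 to 6.29 over the 8 arrays, and its difference was -0.02 ± 0.18 at 24 h (-0.06 and 0.01 in the pairs) and -0.13 ± 0.18 at 10 days (-0.19 and -0.07). The 95% interval for Ccl5 with the block was -0.35 to 0.30 and -0.46 to 0.19. Ccl5 lay at percentiles 31.5 to 34.6 of the genes of an array, and detection above background was not tested. The Ccl3 gene overlaps an unnamed locus in RefSeq.

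Over the 9 genes, 4 were higher in both pairs at 24 h, 2 were lower in both and 3 went opposite ways; at 10 days these counts were 6, 1 and 2. Of all 14506 genes, 31.8% were higher and 32.9% lower in both pairs at 24 h, and 33.2% and 30% at 10 days. The groups did not overlap for 3 of 9 members at 24 h (Ccl20 and Cxcl1 higher, Cxcl12 lower), against 32.1% of all genes (17.5% higher and 14.5% lower), and for 3 of 9 at 10 days (Ccl2, Ccl7 and Cx3cl1, all higher), against 26.2% (14.9% higher and 11.3% lower). Ccl2, Ccl7, Ccl20 and Cxcl1, 4 of 9, were higher in all 4 pairs, as were 14.2% of all genes, and no member was lower in all 4, as were 14.1%. The shares without overlap are near the background and are no result about the chemokines. The median difference over the members was 0.25 at 24 h and 0.24 at 10 days, while over all genes it was -0.001 and 0.02. In the single pairs the member median was smaller, 0.06 and 0.18 at 24 h and 0.12 and 0.23 at 10 days.

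In both fits 0 of 9 members passed at 24 h and 0 of 9 at 10 days. Of all genes 0% passed at 24 h in either fit and 0% at 10 days without the block; with it 6.43% passed at 10 days (3.12% higher and 3.31% lower). At an unadjusted p under 0.05 the counts over all genes without the block were 280 at 24 h (1.93%) and 816 at 10 days (5.63%), and with it 1800 (12.4%) and 3475 (24%). A p that misses the threshold does not show that a gene did not differ, since the SE without the block was 0.97 for Ccl2 and 1.91 for Ccl7.

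In size the Ccl2 and Ccl7 differences stood among the largest. The members were chosen with earlier results of these data known, so the ranks are a description and no test. Ranked from the highest over 14506 genes, Ccl7 had rank 5 and Ccl2 rank 12 in the mean difference at 24 h, and ranks 13 and 110 at 10 days. In 24 h pair 2 they had ranks 2 and 5, and in 10-day pair 1 Ccl7 had rank 1 and Ccl2 rank 40. In 24 h pair 1 the ranks were 51 and 166, and in 10-day pair 2 they were 335 and 696. A mean difference of 2 log2 units or more was found in 0.0827% of genes at 24 h and in 0.372% at 10 days. At the other end, Cxcl12 had rank 14501 at 24 h and 13884 at 10 days.

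**Figure D2:**
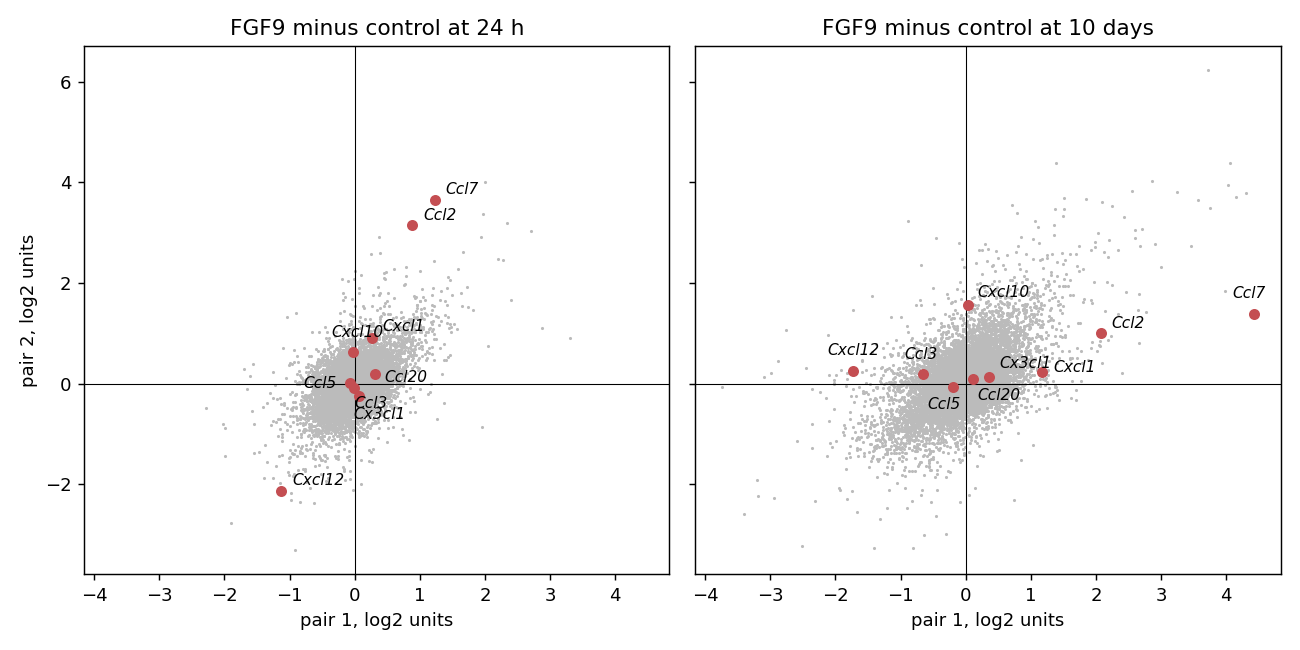
Difference between FGF9 and control in pair 1 (horizontal axis) and pair 2 (vertical axis), in log2 units, for all 14506 genes (grey) and the 9 chemokines (red), at 24 h (left) and 10 days (right). Ccl2 and Ccl7 lie far from the cloud in pair 2 at 24 h (3.15 and 3.65) and in pair 1 at 10 days (2.08 and 4.43); Cxcl12 is low in both pairs at 24 h and in pair 1 at 10 days.

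The pairs with the largest Ccl2 and Ccl7 differences at each time are those with the prefix CL2, a grouping noticed after the values were seen. Ccl2 differed by 3.15 and 2.08 in the CL2 pairs (24 h and 10 days), against 0.89 in the CL1 pair and 1.00 in the AA1 pair. Ccl7 differed by 3.65 and 4.43, against 1.23 and 1.38. Cxcl1 differed by 0.90 and 1.18, against 0.26 and 0.23. For these 3 of 9 members both CL2 pairs lay above both other pairs, which held for 13.9% of all genes, and for 2 of 9 (Cxcl12 and Ccl3) both lay below, which held for 14% of all genes. With 2 pairs against 2 the difference between prefixes was not tested, and prefix, time and replicate cannot be told apart in single pairs.

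**Figure D3:**
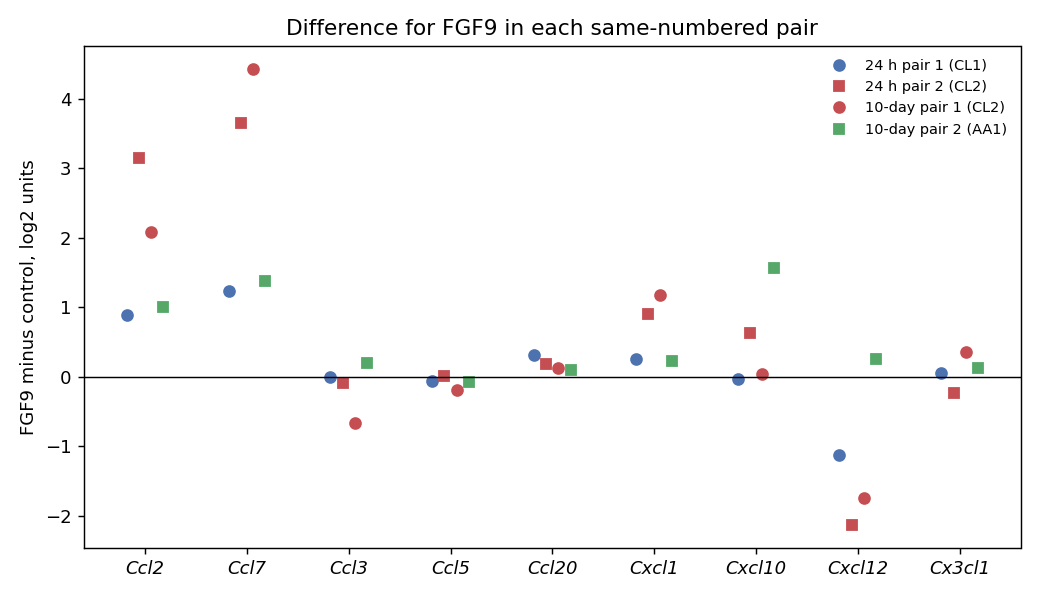
Difference between FGF9 and control in log2 units (vertical axis) in each of the 4 pairs for the 9 chemokines; colours are array name prefixes and symbols are replicate numbers. All 4 points lie above 0 for Ccl2, Ccl7, Ccl20 and Cxcl1, and 3 of 4 lie below 0 for Cxcl12; the CL2 points are the highest for Ccl2, Ccl7 and Cxcl1.

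Whether the effect of FGF9 changed between the times was tested as the difference of the differences. It was -0.48 ± 1.38 for Ccl2 (10 days minus 24 h), 0.46 ± 2.71 for Ccl7 and 0.88 ± 1.85 for Cxcl12. None of the 9 members passed, without or with the block, where the smallest adjusted p in limma was 0.573 (Cx3cl1); 0% of all genes passed without the block (1.9% at an unadjusted p under 0.05) and 0.0483% with it (12.9%). With the block the 95% interval was -2.31 to 1.35 for Ccl2 and -2.34 to 3.26 for Ccl7, which includes a smaller and a larger effect at 10 days.

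The 4 groups of Ccl2 ordered by mean were control at 24 h (8.85), control at 10 days (9.07), FGF9 at 10 days (10.61) and FGF9 at 24 h (10.87). For Ccl7 the order was control at 10 days (6.16), control at 24 h (7.61), FGF9 at 10 days (9.07) and FGF9 at 24 h (10.06). For Cxcl12 it was FGF9 at 10 days (8.24), FGF9 at 24 h (8.58), control at 10 days (8.99) and control at 24 h (10.21). Neighbours in these orders overlapped in their arrays or differed by less than the SE of the fit, except Ccl2 between control and FGF9 at 10 days. Between the untreated groups, 10 days against 24 h, Ccl7 differed by -1.45 ± 1.91 and Cxcl12 by -1.22 ± 1.31, and 0 of 9 members and 0% of all genes passed in limma (2.86% at an unadjusted p under 0.05). The sign for Cxcl12 rested on the AA1 control (7.00): with that array left out, which leaves 1 in its group, the difference was 0.76.

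Because the times gave differences of the same sign for Ccl2 and Ccl7, the mean effect over all 4 pairs was fitted as well, a comparison added after the values were seen. Ccl2 was higher by 1.78 and Ccl7 by 2.67 log2 units, with SEs of 0.69 and 1.35 without the block (limma adjusted p = 0.895 and 1) and of 0.37 and 0.57 with it. With the block Ccl2 was the only member that passed (limma adjusted p = 0.0498), Ccl7 lay just outside (0.0515), and Cxcl12, at -1.19, followed (0.0961); 6.48% of all genes passed, 3.09% higher and 3.39% lower. Without the block 0% passed (5.31% at an unadjusted p under 0.05, and 24.5% with it). Cxcl1 differed by 0.64 ± 0.19 with the block (limma adjusted p = 0.104). The call for Ccl2 ended when values were quantile normalized first (limma adjusted p = 0.0552) and when either CL2 pair was left out (0.13 without 24 h pair 2 and 0.0675 without 10-day pair 1). Ccl7 passed when either 10-day pair was left out (0.0423 without pair 1 and 0.0157 without pair 2) and not without a 24 h pair (0.0537 and 0.194), and it passed with a variance trend (0.0336) and with low genes filtered (0.0485).

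Genes that lie beside the members in the RefSeq gene order were compared with them. Ccl11 and Ccl12 follow Ccl2 and Ccl7 on chromosome 10. Ccl11, an eosinophil chemoattractant, was higher by 0.64 in 24 h pair 1 and 0.75 in 10-day pair 1, and by 0.00 and 0.10 in the other pairs, at values between 5.36 and 6.27. Ccl12 stayed between 4.81 and 5.46, with differences from -0.51 to 0.18. Next to Cxcl1 on chromosome 14, Cxcl3 was higher by 0.26 and 0.57 at 24 h and by -0.04 and 0.16 at 10 days, and Cxcl2 differed by no more than 0.11 in any pair. Beside Cxcl10, the interferon-induced Cxcl11 and Cxcl9 stayed between 4.39 and 5.25; on the AA1 arrays Cxcl11 stood at 5.24 and 5.08 and Cxcl9 at 5.03 and 5.25. None of these 6 neighbours passed with the block at either time. Ccl12, Cxcl2, Cxcl9 and Cxcl11 lay below the 25th percentile of features (5.42 to 5.54) on every array, and detection above background was not tested.

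Of 27 other chemokine ligands listed, 26 were measured. At 24 h 15 were higher and 11 lower, with a median of 0.05, and 0 passed in either fit. At 10 days 13 were higher and 13 lower, and with the block 1 of 26 rose and 1 fell, against 3.12% and 3.31% of all genes. Cxcl13, a B cell attractant, stood at 6.14 and 5.31 in the 10-day controls and at 6.95 and 6.73 with FGF9. It rose by 1.12 (SE 0.20 and limma adjusted p = 0.036 with the block, 0.644 without). The AA1 control (5.31) lay below the 25th percentile of features on that array (5.48), and detection above background was not tested. At 24 h Cxcl13 ran from 5.37 to 5.87. Ccl27 stood at 8.08 and 9.01 in controls and 6.70 and 7.97 with FGF9, a difference of -1.21 (SE 0.17 with the block, limma adjusted p = 0.0237; 0.999 without). The Ccl27 gene overlaps Il11ra1 in RefSeq, so its feature may also read that transcript.

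Of 23 chemokine receptors 19 were measured, and none passed in either fit at either time. At 24 h 15 were higher and 4 lower (median 0.07), and at 10 days 11 and 8 (median 0.03). Ccr2, the receptor of Ccl2 and Ccl7, stayed between 5.36 and 5.84, low at percentiles 17.1 to 28.4 of the genes of an array. Cxcr4, the receptor of Cxcl12, stood at 9.10, 8.05, 9.06 and 7.43 in the controls (24 h and then 10 days, by replicate) and at 8.58, 8.08, 8.88 and 7.31 with FGF9, so it differed more between pairs than with treatment. Ackr3, the other receptor of Cxcl12, lay between 6.78 and 7.87, and Cx3cr1, the microglial receptor of Cx3cl1, between 6.95 and 8.47. The receptors of the members were chosen for their ligands and lie outside the naming rule, apart from Ccr2. Cxcr6, the receptor of Cxcl16, was higher by 2.03 in 24 h pair 2 and by 1.41 in 10-day pair 1, both CL2 pairs, and differed by -0.11 and 0.40 in the others.

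Among 27 measured NF-kB signalling and target genes, 17 were higher and 10 lower at 24 h (median 0.12), and none passed. The cytokines Il6 and Il1b differed by 0.37 ± 0.18 and 0.44 ± 0.22. Il6 ran from 4.85 to 5.41 and lay below the 25th percentile of features (5.42 to 5.54) on every array. Il1b was low too, from 5.33 to 6.09, and detection above background was not tested for either. Nfkbia, the inhibitor that NF-kB induces, differed by -0.40 ± 0.30, and Csf1, the growth factor of microglia, by -0.46 ± 0.40. At 10 days 18 were higher and 9 lower (median 0.19), and with the block 2 of 27 rose, against 3.12% of all genes. Il1r1, the interleukin-1 receptor, rose by 1.95 (1.33 and 2.57 in the pairs; SE 0.29, limma adjusted p = 0.0251 with the block and 0.82 without). The adhesion molecule Vcam1 rose by 0.86 (0.70 and 1.03; SE 0.18, limma adjusted p = 0.0492 with the block and 1 without). Tnfrsf1a, a receptor of tumour necrosis factor, differed by 0.53 in pair 1 and 1.64 in the AA1 pair (limma adjusted p = 0.0823 with the block). Bcl3 differed by 0.35 and 0.55 (0.151) and Il1b by -0.45 and -0.58 (0.0787). Vcam1 was named after its value was seen.

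Interferon response genes, the class to which Cxcl10 belongs, had a median of -0.36 at 24 h with 15 of 22 lower, and of -0.07 at 10 days with 12 of 22 lower. In the pairs of 10 days the medians were -0.31 and 0.31. Mx2, an antiviral GTPase, differed by -1.45 ± 0.51 at 24 h (-2.00 and -0.89 in the pairs) and -1.18 ± 0.51 at 10 days (-1.29 and -1.07). Isg15, a ubiquitin-like protein, differed by -0.74 ± 0.43 (-1.30 and -0.18) and -0.58 ± 0.43 (-0.64 and -0.53), and Gbp2 by 1.55 ± 0.69 at 24 h (0.78 and 2.32), all without passing. With the block 1 of 22 rose at 10 days, against 3.12% of all genes: Tap1, a peptide transporter of antigen presentation (0.80 and 0.93 in the pairs, mean 0.87, SE 0.16, limma adjusted p = 0.0396; 0.835 without the block). Of 6 measured proteases that cut chemokines none passed; Adam17, which sheds Cx3cl1 from the cell surface, differed by 0.25 ± 0.40 at 24 h (0.03 and 0.48 in the pairs) and 0.48 ± 0.40 at 10 days (0.31 and 0.65).

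Markers of other cells that make chemokines were set beside the members as mean log2 values of each list. The 16 measured microglia and macrophage markers averaged 8.91 and 7.92 in the 24 h controls, 8.54 and 8.16 with FGF9 at 24 h, 8.60 and 7.80 in the 10-day controls and 8.17 and 8.24 with FGF9 at 10 days. Among controls and 24 h FGF9 arrays replicate 1 was thus the higher in each group, as for Ccl3. In the 10-day FGF9 group Ccl3 was again higher in replicate 1 (6.82 against 6.16), but the list was not. With FGF9 the microglia and macrophage list went down in both first pairs (medians of -0.41 and -0.56) and up in both second pairs (0.31 and 0.33). T and NK cell markers averaged 5.25 to 5.64 and neutrophil markers 5.16 to 5.56; the defining Cd3e, Cd3g, Cd3d and Cd2 stayed at or under 5.53 on each array and S100a8, S100a9, Mpo and Elane at or under 5.93. The 11 fibroblast, meningeal and pericyte markers averaged 7.26 and 7.53 on the AA1 arrays and 8.47 to 9.16 on the other 6. Not all members went that way. The defining Col1a1, Col1a2, Col3a1 and Dcn were lower on both AA1 arrays than on any other. Cspg4 was not, at 7.42 and 9.18 there and between 6.24 and 7.89 on the other 6. The 9 endothelial markers averaged 5.35 to 6.26, though Kdr reached 9.01 and 8.95 in the controls of the CL2 pairs. Astrocyte markers averaged 10.17 to 11.39, neuron markers 9.76 to 11.44, oligodendrocyte markers 9.06 to 11.33, their precursors' markers 9.43 to 10.66 and Schwann cell markers 6.72 to 7.80. The part of these cells in the chemokine values was not tested.

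**Figure D4:**
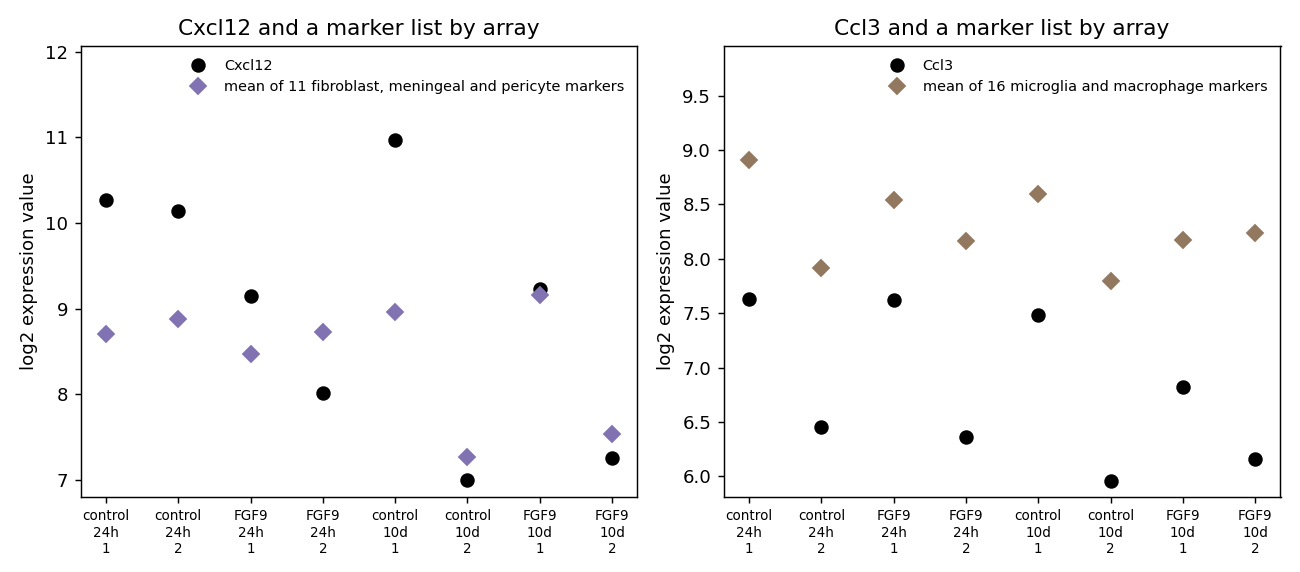
Log2 expression value (vertical axis) of Cxcl12 with the mean of 11 fibroblast, meningeal and pericyte markers (left), and of Ccl3 with the mean of 16 microglia and macrophage markers (right), on each of the 8 arrays (horizontal axis, by group and replicate); only the order of arrays can be compared between a gene and a list. Cxcl12 and the mean of its list are both lowest on the AA1 arrays (replicate 2 at 10 days), though Cspg4 of that list is not. At 24 h the list mean is only slightly lower with FGF9 (8.47 and 8.73 against 8.70 and 8.88). Ccl3 is highest in replicate 1 at 24 h, at 7.63 in the control and 7.62 with FGF9. The mean of its list is highest in that control (8.91, against 8.54 with FGF9).

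Genes whose values over the 8 arrays lay closest to a member were found by the root mean square difference after centring each gene on its mean, for the 4 members that ranged over at least 2 log2 units. As a yardstick, a gene that did not vary would lie 1.23 from Ccl2, 2.23 from Ccl7, 0.91 from Cxcl10 and 1.36 from Cxcl12. Nearest to Ccl2 were Cxcr6 (0.66), Map3k6 (0.71), Rdh16, Pmaip1 and the FGF feedback inhibitor Spry4 (0.72 each). Nearest to Ccl7 were Igfbp3 (1.11), Esm1 (1.20), Cd55 (1.34), Plet1 (1.36) and Slc1a5 (1.37), and Ccl2 was not among them. Cxcl10 had much closer neighbours, Plcd1 (0.22), Slc29a4 (0.26), Bak1 (0.28), E2f5 and Lyn (0.30 each), of which all but Lyn had their highest values on both AA1 arrays. Nearest to Cxcl12 were Agt (0.52), which encodes angiotensinogen, Spp1 (0.54), which encodes osteopontin, Ch25h and Adamts15 (0.60 each) and Fcrl2 (0.61). These are the closest named genes over 8 arrays that share pairs and prefixes, and the distances are a description.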

How the data were processed

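The deposited table holds log2 values, which were used as the authors gave them, for 29214 features on 8 Rat Gene 1.0 ST arrays. Partek 6.5 and GCRMA, which corrects background and summarizes probes, are named per the submitters' processing notes; the scale is read from the values, and further settings were not given in the sources used here. Of the features 15310 had 1 symbol, and each of 14506 genes was read from its feature with the highest mean. Depth does not apply to arrays; 2 per group limit the precision.

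Groups and replicate numbers came from the titles. A linear model with 1 mean per group on all arrays (limma 3.58.1 in R 4.3.3, lmFit and eBayes) left 4 residual degrees of freedom, and p-values were adjusted over 14506 genes by Benjamini-Hochberg. Arrays of one number deviated together from their group means (r = 0.757 at 24 h, 0.819 at 10 days), so the pair was also fitted as a block, leaving 2. Alternatives were this block, leaving out arrays or pairs, quantile normalization, array medians, a filter on low genes, another feature rule and a variance trend. The code was tested on simulated data.

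The members and lists were chosen with earlier results of these data known. Of each of 5 pathway lists the 4 genes with the smallest unadjusted p in an FGF9 comparison could be named, with the 4 defining genes of 10 marker lists and the 5 nearest genes by pattern, unnamed loci and olfactory, vomeronasal and taste receptors skipped. Neighbouring genes, genes that passed in a list and receptors of the members were named outside this rule, after values were seen.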

Additional observations from a re-analysis of the deposited data

How the results depend on the processing

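No array normalization, filter, feature rule or variance trend without the block gave a call among the 9 chemokines. With the replicate block 0 members passed at 24 h, at 10 days and in the difference of the effects, and 1 passed over both times; all genes called became 933 at 10 days, 7 in the difference and 940 over both times. Leaving a pair out of the block fit gave 1 member at 24 h (Cxcl12, without either 10-day pair; 237 genes in all), 1 member at 10 days whichever pair was left out (Ccl2 without either 24 h pair, 469 genes; Cxcl10 without pair 1, 1506; Ccl7 without pair 2, 569) and 1, 322 and 9 genes in the difference without 24 h pair 1, 10-day pair 1 and 10-day pair 2. Over both times it gave 1 member and 187 genes without 24 h pair 1, 48 genes without 24 h pair 2, 2 members and 1814 genes without 10-day pair 1, and 4 members (Ccl2, Ccl7, Cxcl1 and Cxcl12) and 1176 genes without 10-day pair 2.

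Of the settings chosen after seeing the data, the block with quantile normalization gave 957 genes at 10 days, 8 in the difference and 980 over both times with 0 members; with a variance trend 1180, 8 and 1168 with 2 members (Ccl2 and Ccl7); and with low genes filtered 988, 7 and 999 with the same 2. Without the block, subtracting array medians called 6 genes at 10 days and quantile normalization 1 over both times; the array name prefix as a block called 1 gene in the control time comparison, where it turned Cxcl12 to 0.59.

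Leaving out 1 array unbalances the pairs and turned values that did not pass: at 24 h Ccl3 ran from -0.68 to 0.58, Ccl5 from -0.12 to 0.07, Cxcl10 from -0.10 to 0.70 and Cx3cl1 from -0.50 to 0.32. At 10 days Ccl3 ran from -0.99 to 0.53, Cxcl12 from -2.72 to 1.24, Ccl20 from -0.23 to 0.44, Cxcl1 from -0.17 to 1.58 and Cxcl10 from -0.60 to 2.21. Over both times Ccl3 ran from -0.52 to 0.24, Cx3cl1 from -0.13 to 0.28 and Cxcl10 from -0.15 to 1.25. In the difference Ccl2 ran from -2.06 to 1.10, Ccl7 from -1.84 to 2.75 and Cxcl12 from -1.10 to 2.86, and in the control time comparison Cxcl12 from -3.20 to 0.76. Where an array left out leaves 1 in its group, that array is assumed to vary like the other groups. With 1 array left out Ccl2 ran from 0.44 to 3.60 at 24 h, from 1.17 to 1.90 at 10 days and from 0.99 to 2.57 over both times, and Ccl7 from 0.15 to 4.74, from 0.79 to 5.02 and from 1.53 to 3.82. The lowest values at 24 h were those without FGF9 replicate 2 at 24 h, and the lowest for Ccl7 at 10 days that without FGF9 replicate 1 at 10 days. With a pair left out of the block fit, turned values were Ccl5 0.01 (without 24 h pair 1), Cxcl10 -0.03 and Cx3cl1 0.06 (without 24 h pair 2) at 24 h; Ccl3 0.20 and Cxcl12 0.25 at 10 days and Ccl3 0.08 over both times (without 10-day pair 1); and in the difference Ccl7 -0.75 without 24 h pair 1 and -1.06 without 10-day pair 1, Ccl2 0.65 without 24 h pair 2 and 0.06 without 10-day pair 2, and Cxcl12 -0.11 without 10-day pair 2. Subtracting array medians turned Ccl5 to 0.02 at 24 h. The cause of these turns was not tested.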
